A study of Homo sapiens with 3 samples.

Results

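The outermost stretch of the chromosome 2 long arm was examined in ChIP-seq peak lists of Spindlin1 and C11orf84 from U2OS, a human osteosarcoma cell line. Its members are all peaks of both lists whose summit lies at position 236000000 of chromosome 2 or beyond in the genome build hg19. They were 4738 of 331107 peaks in all, of which 2181 came from 153468 peaks called for Spindlin1 and 2557 from 177639 called for C11orf84. The short arm end of the same chromosome, with summits up to 7 Mb, held 312 Spindlin1 and 456 C11orf84 peaks and served for comparison. The cells of every group were untreated and fixed with formaldehyde, and the labels name no genetic change. There was 1 library for Spindlin1, 1 for C11orf84 and 1 Input library made without antibody, which was not analysed here. The stretches were chosen by the number of peaks in them, the long arm end for being crowded and the short arm end for being sparse, so their peak numbers are a description and carry no test. With 1 library per antibody no difference between parts of the genome could be tested, and the 95% intervals given below are exact Clopper-Pearson intervals that cover counting error alone. Neighbouring peaks are not independent, so the intervals are likely too narrow.

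Spindlin1 is a chromatin reader whose tudor-like domains hold methylated tails of histone H3, and it is known as a coactivator of transcription, of ribosomal RNA genes among others. C11orf84, also called SPINDOC, binds Spindlin1 and is known to modulate its docking on histone tails. The last bands of the long arm of chromosome 2 are known to carry many genes. Among them are HDAC4, a histone deacetylase that restrains cartilage maturation, TWIST2, a repressor of osteoblast differentiation, COL6A3, a chain of collagen VI, ACKR3, a scavenger receptor for a chemokine, PER2 of the circadian clock, KIF1A, a motor of axonal transport, AGXT, a glyoxylate-detoxifying liver enzyme, and PDCD1, which encodes the immune checkpoint receptor PD-1. The short arm end is known for the neural transcription factors MYT1L and SOX11. In RefSeq's order of genes (GRCh38.p14), 62 protein-coding genes run from AGAP1 to the tip of the long arm and 20 from the tip of the short arm to SOX11. That build differs from the one of the peaks, so these stretches were not matched to the limits of the peak sets and no peak was assigned to a gene.

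Peaks of both proteins were several times denser in the long arm end than in any stretch it was set against. Spindlin1 had 310.2 peaks per Mb in the long arm end, against 44.9 in the short arm end, 49.6 on the rest of chromosome 2 and 57.6 on the other chromosomes. C11orf84 had 363.7 peaks per Mb there, against 65.7, 54.2 and 67.0 in the same 3 places. The long arm end was thus 6.90 times (95% interval 6.13 to 7.80) as dense as the short arm end for Spindlin1 and 5.54 times (5.01 to 6.13) for C11orf84. Both stretches were chosen by their peak numbers, so these ratios describe that choice and test nothing. Spindlin1 intervals covered 9.34% of the long arm end and 1.04% of the short arm end, and C11orf84 intervals covered 12.7% and 1.65%. The gap from one peak to the next had a median of 768 bp for Spindlin1 and 645 bp for C11orf84 in the long arm end. In the short arm end these medians were 6663 and 4660 bp.

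Crowding was uneven inside the long arm end and was greatest near the tip. From its inner limit outwards, successive 1 Mb windows held 124, 123, 169, 330, 409, 594 and 429 Spindlin1 peaks. The same windows held 171, 185, 202, 386, 504, 646 and 460 C11orf84 peaks, and 3 peaks of each protein lay past 243 Mb. The fullest window, 241 to 242 Mb, ranked 20 of 2738 windows with a Spindlin1 peak and 19 of 2775 with a C11orf84 peak, whereas the innermost window ranked 370 and 304.

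In bins of 100 kb both proteins were crowded and sparse in the same places. Every one of the 71 bins of the long arm end held at least 1 peak of each protein, with a median of 26 Spindlin1 and 30 C11orf84 peaks. The fullest for Spindlin1 was 239.0 to 239.1 Mb with 85 Spindlin1 and 72 C11orf84 peaks, and the fullest for C11orf84 was 241.3 to 241.4 Mb with 79 and 91. Next came 240.0 to 240.1 Mb (75 and 86), 241.8 to 241.9 Mb (75 and 80) and 241.7 to 241.8 Mb (74 and 75), with 242.8 to 242.9 Mb (71 and 73) in the fifth place for C11orf84. The place of the fullest bin depended on the bin size, and for both proteins it was 241.65 to 241.70 Mb in bins of 50 kb and 241.8 to 242.0 Mb in bins of 200 kb. C11orf84 had more peaks than Spindlin1 in 59 bins, Spindlin1 had more in 9, and 3 bins were level. Over these bins the counts of both lists had a Pearson coefficient of 0.966 and a Spearman coefficient of 0.967. Both counts of a bin share its base composition and perhaps an Input library, so this is a description only.

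The long arm end also held a trough and several empty stretches. The bins at 242.2 to 242.3 and 242.3 to 242.4 Mb, singled out after the counts were seen, had 11 and 13 Spindlin1 peaks and 10 and 8 C11orf84 peaks, between neighbours of 56 and 43 Spindlin1 peaks. The longest stretches without a peak of either protein were 238140601 to 238216288 (75.7 kb), 238708013 to 238766561 (58.5 kb) and 237649822 to 237702222 (52.4 kb), followed by 237996546 to 238035049 and 238102959 to 238140420, all of them below 239 Mb. In the short arm end the longest were 2300792 to 2511297 and 4512465 to 4721696, of 210.5 and 209.2 kb.

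**Figure D1:**
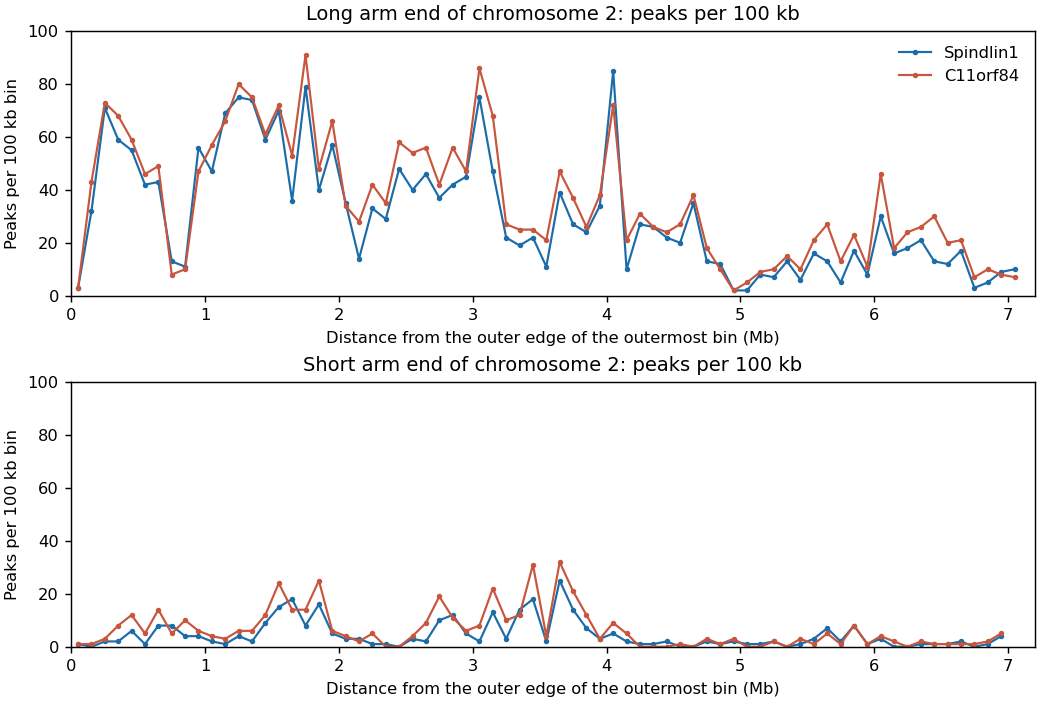
Peaks per 100 kb bin (vertical axis, number of peaks) against the distance in Mb from the outer edge of the outermost bin, for the long arm end (top) and the short arm end (bottom) of chromosome 2, Spindlin1 in blue and C11orf84 in red. Both lists reach 70 or more peaks in several bins of the long arm end, and at most 25 Spindlin1 and 32 C11orf84 peaks in a bin of the short arm end.

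Peaks of the long arm end had the usual median depth of these lists, but few very deep summits were among them. Summit depth is the number of fragments over the highest point of a peak, worked out from the fold and p-value that the authors gave. Its median was 11 fragments for Spindlin1 peaks (middle 50% from 10 to 13) and 12 for C11orf84 peaks (10 to 14). On the rest of chromosome 2 the medians were 12 and 13 (10 to 15 and 11 to 16), on the other chromosomes 11 and 12 (10 to 14 and 10 to 15), and in the short arm end 10 and 11. The deepest Spindlin1 summit of the long arm end had 23 fragments and the deepest of C11orf84 had 24, while the rest of chromosome 2, with several times as many peaks, reached 75 and 111. Fewer than 20 fragments lay over 99.5% of its Spindlin1 and 98.7% of its C11orf84 summits, against 94.98% and 91.98% on the rest of chromosome 2 and 95.5% and 93.9% on the other chromosomes. These shares were 100% and 99.8% in the short arm end.

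Strong calls were few in proportion. The authors' −log10 q reached at least 10 at 148 Spindlin1 peaks of the long arm end (6.79%, 5.77 to 7.92), against 4.49% in the short arm end, 13.6% on the rest of chromosome 2 and 11.8% over all chromosomes from 1 to 22 and X. For C11orf84 it did so at 319 peaks (12.5%, 11.2 to 13.8), against 4.61%, 19.7% and 15.7%. Spindlin1 peaks of the long arm end made up 1.42% of their list but 70 (0.7%) of its 10000 peaks of highest −log10 q. C11orf84 peaks made up 1.44% of theirs but 58 (0.58%) of its top 10000. Among peaks with a −log10 q of at least 10 there were 0.464 Spindlin1 peaks per C11orf84 peak in the long arm end (95% interval 0.379 to 0.566). This ratio was 0.629 on the rest of chromosome 2 (0.589 to 0.671) and 0.652 on the other chromosomes (0.640 to 0.665). In the short arm end it was 0.667 (0.314 to 1.37) from 14 Spindlin1 and 21 C11orf84 peaks, and that interval took in 0.464. Among all peaks the ratio in the long arm end was 0.853 (0.805 to 0.903), against 0.684 in the short arm end (0.591 to 0.792), 0.914 on the rest of chromosome 2 and 0.861 on the other chromosomes. Library read totals were not used, so the ratios are set against each other and not against 1.

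The authors' fold enrichment, the summit over a local background, was of ordinary size. Its median in the long arm end was 6.06 for Spindlin1 and 5.89 for C11orf84, against 5.83 and 5.89 on the rest of chromosome 2. Widths were ordinary as well, with the middle 50% of Spindlin1 peaks between 186 and 350 bp and of C11orf84 peaks between 199 and 398 bp. The same ranges were 183 to 332 bp and 196 to 368 bp on the rest of chromosome 2, and the medians in the short arm end were 194 and 208 bp. Intervals of 1 kb or more numbered 22 for Spindlin1 (1.01%, against 1.48% over all chromosomes) and 61 for C11orf84 (2.39%, against 2.42%). Of these, 12 and 32 lay at 241 to 242 Mb, a window with 594 of 2181 Spindlin1 and 646 of 2557 C11orf84 peaks. None lay below 239 Mb, where windows of 1 Mb held 124, 123 and 169 Spindlin1 and 171, 185 and 202 C11orf84 peaks. All intervals of 1 kb or more in the long arm end were shared. How often intervals of that width were shared over all chromosomes was not counted. A wide interval has more room to meet a peak by 1 bp, and the part of width was not tested. Intervals of 1 kb or more were 0 of 312 and 0 of 456 in the short arm end. By the limit of 3 counts over the total, this allows shares of up to 0.962% and 0.658%. The exact 95% interval reaches 1.18% and 0.806%, and the first of these takes in the 1.01% of the long arm end.

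**Figure D2:**
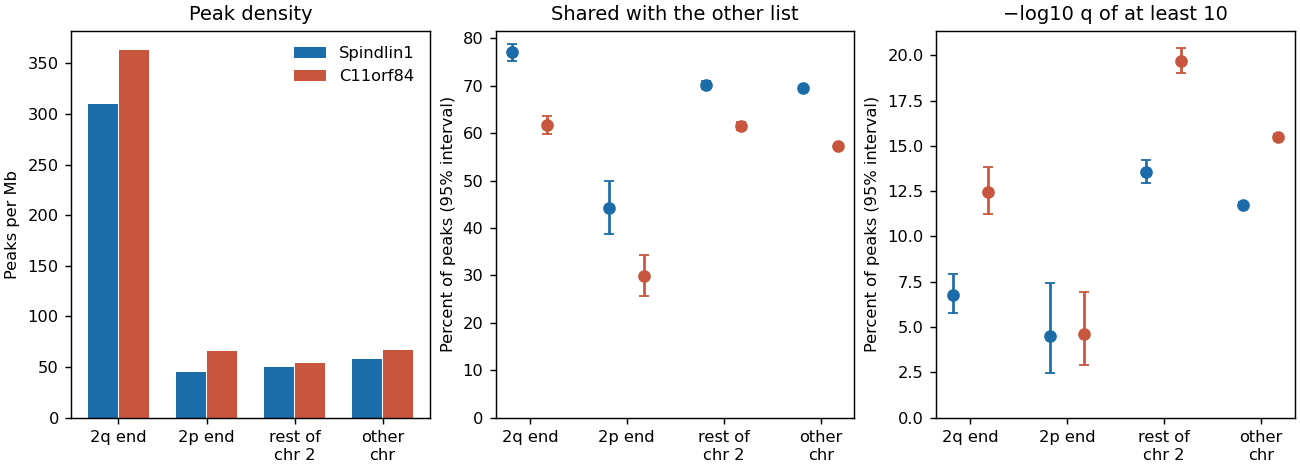
Peaks per Mb (left, bars), percent of peaks shared with the other list (middle) and percent of peaks with a −log10 q of at least 10 (right) in the long arm end (2q end), the short arm end (2p end), the rest of chromosome 2 and the other chromosomes, Spindlin1 in blue and C11orf84 in red, with exact 95% intervals as error bars. The long arm end has the tallest bars, 310.2 and 363.7 peaks per Mb, yet 6.79% and 12.5% of peaks past the stricter threshold, below the rest of chromosome 2.

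The proteins coincided at most Spindlin1 peaks of the long arm end. A peak was called shared when at least 1 bp of it lay in a peak of the other list. Of the Spindlin1 peaks 1681 were shared (77.1%, 75.3 to 78.8), against 44.2% in the short arm end (38.6 to 49.9), 70.2% on the rest of chromosome 2 and 69.7% over all chromosomes. Of the C11orf84 peaks 1577 were shared (61.7%, 59.8 to 63.6), against 29.8% (25.7 to 34.3), 61.5% and 57.6%. In bases, both proteins covered 444.4 kb of the long arm end at once, 67.7% of what Spindlin1 covered and 49.8% of what C11orf84 covered. In the short arm end it was 28.2 kb, or 39.0% and 24.7%. Peaks with no peak of the other list within 5 kb were rare in the long arm end, at 31 of Spindlin1 (1.42%) and 75 of C11orf84 (2.93%), against 15.1% and 27.6% in the short arm end and 8.36% and 10.9% over all chromosomes.

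Sharing varied along the long arm end with the number of peaks. In the innermost 1 Mb 59.7% of Spindlin1 peaks (50.5 to 68.4) and 42.7% of C11orf84 peaks (35.2 to 50.5) were shared. At 241 to 242 Mb these shares were 85.0% (81.9 to 87.8) and 72.8% (69.1 to 76.2). In the window starting at 240 Mb, with more peaks than the one before it, they were 75.1% (70.6 to 79.2) and 58.3% (53.9 to 62.7). In the window before it they were 78.8% (74.0 to 83.1) and 62.2% (57.1 to 67.0). The intervals of these neighbours met, so whether sharing and number moved in step there cannot be told.

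In bins of the same class of crowding, the long arm end shared about as many of its peaks as the other chromosomes. It shared as many as the rest of chromosome 2 or fewer. In both classes of 50 or more peaks it had fewer strong calls than either. The class of fewer than 50 peaks was not matched for number, as given below. Bins of 100 kb were divided at 50 and 100 peaks of both lists together, limits set after the counts were seen. In the 17 bins with 100 or more peaks, 84.5% of Spindlin1 peaks (82.2 to 86.6) were shared, against 85.4% (83.6 to 87.0) in 28 such bins on the rest of chromosome 2 and 84.7% (84.3 to 85.1) in 570 on the other chromosomes. For C11orf84 these shares were 70.9% (68.2 to 73.5), against 75.3% (73.3 to 77.3) and 73.7% (73.2 to 74.1). In these bins of the long arm end C11orf84 intervals covered 27.9% and Spindlin1 intervals 21.0% of the bases, against 4.47% and 2.98% in its 34 bins with fewer than 50 peaks. The part of this coverage in the sharing was not tested. In those sparse bins, 62.5% of Spindlin1 peaks (57.6 to 67.2) were shared in the long arm end, against 42.2% (36.4 to 48.1) in the short arm end, 61.7% on the rest of chromosome 2 and 58.4% on the other chromosomes. For C11orf84 it was 45.7% (41.6 to 49.96), against 28.3% (24.1 to 32.8), 54.2% (53.0 to 55.4) and 47.4%. In the 20 bins between these classes 74.3% of Spindlin1 peaks (70.9 to 77.5) and 59.7% of C11orf84 peaks (56.3 to 63.0) were shared in the long arm end, against 79.5% (78.0 to 80.9) and 69.3% (67.7 to 70.9) on the rest of chromosome 2 and 73.7% and 59.99% on the other chromosomes. The short arm end, with a median of 2 Spindlin1 and 4 C11orf84 peaks over its 70 bins, was below the other places in bins of fewer than 50 peaks. Bins of that class were not matched for number. Those of the long arm end held 413 Spindlin1 peaks in 34 bins, against 287 in 61 in the short arm end. It was 6341 in 1460 on the rest of chromosome 2 and 64390 in 14007 on the other chromosomes. For C11orf84 it was 564 in 34, against 424 in 59, 6988 in 1427 and 77575 in 14602. The sparse bins of the long arm end were thus the fullest of their class.

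The share of strong calls was higher in fuller bins elsewhere, whereas for Spindlin1 in the long arm end it was nearly level. In bins of 100 or more peaks, 6.90% of Spindlin1 peaks of the long arm end (5.46 to 8.59) passed the limit of 10, against 18.9% (17.0 to 20.9) on the rest of chromosome 2 and 18.3% (17.9 to 18.7) on the other chromosomes. In bins of fewer than 50 peaks the shares were 7.02% (4.75 to 9.93), against 11.3% and 8.38%. C11orf84 peaks passed in 15.5% (13.5 to 17.7) of cases in the fullest bins of the long arm end, against 28.3% (26.2 to 30.4) and 24.5% (24.1 to 24.9), and in 10.6% (8.22 to 13.5) of cases in the sparse bins, against 15.7% and 11.2%. The intervals of the fullest bins did not meet those of the rest of chromosome 2 or of the other chromosomes in either list.

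Because the q-value depends on background as well as depth, deep summits were also counted among peaks on the lowest background of their list, called the floor. In bins of 100 or more peaks, 15 fragments or more were found at 7.47% of such Spindlin1 peaks of the long arm end (5.71 to 9.57), against 21.9% on the rest of chromosome 2 (18.5 to 25.6) and 15.7% on the other chromosomes (15.2 to 16.2). For C11orf84 the shares were 17.4% (14.8 to 20.3), against 31.6% (27.7 to 35.7) and 21.99% (21.4 to 22.5). In bins of fewer than 50 peaks they were 7.72% for Spindlin1 (4.71 to 11.8), against 8.93% and 5.35%, and 11.1% for C11orf84 (8.04 to 14.9), against 13.2% and 8.10%. Over all bins the C11orf84 share was 13.5% (11.9 to 15.2), against 19.8% on the rest of chromosome 2 and 13.02% on the other chromosomes (12.8 to 13.3). The intervals of the long arm end were below those of the rest of chromosome 2 in the fullest bins of both lists and met them in the sparse bins, at 7.63 to 10.4 for Spindlin1 and 11.7 to 14.7 for C11orf84.

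**Figure D3:**
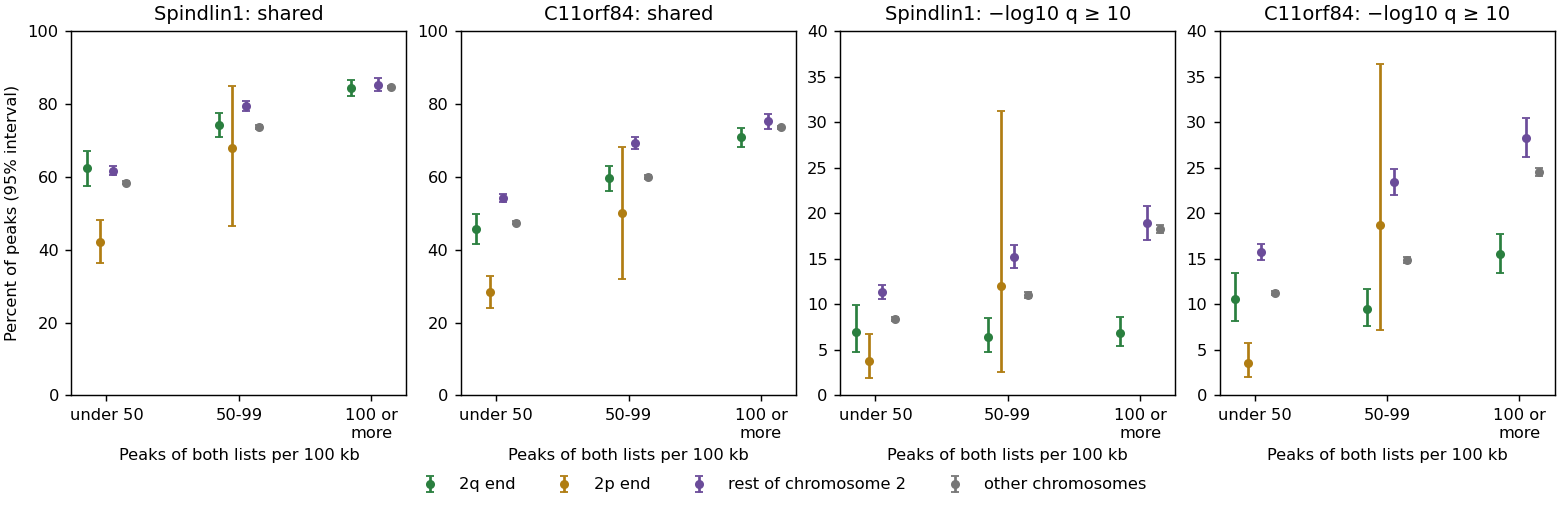
Percent of peaks shared with the other list (left pair of panels) and percent of peaks with a −log10 q of at least 10 (right pair) by the number of peaks of both lists in the 100 kb bin, for the long arm end (2q end), the short arm end (2p end), the rest of chromosome 2 and the other chromosomes, with exact 95% intervals. In bins of 100 or more peaks the long arm end shares 84.5% of its Spindlin1 peaks, close to the other places, while 6.90% of them pass the stricter threshold, against 18.9% on the rest of chromosome 2.

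Shallow peaks of the long arm end were shared more often than shallow peaks elsewhere when crowding was left aside. Only peaks at the floor were used, so that all were set against the same level. Spindlin1 peaks of 6 to 8 fragments were shared in 73.3% of cases in the long arm end (66.1 to 79.7, 176 peaks), against 34.9% in the short arm end (21.0 to 50.9), 43.4% on the rest of chromosome 2 (38.5 to 48.4) and 54.0% on the other chromosomes (53.0 to 54.9). C11orf84 peaks of that depth were shared in 51.9% of cases (43.0 to 60.7, 131 peaks), against 16.4%, 31.4% and 34.4%. At 15 or more fragments the shares were 88.0% for Spindlin1 (80.3 to 93.4), against 89.5% and 89.9% on the rest of chromosome 2 and the other chromosomes, and 77.1% for C11orf84 (71.1 to 82.4), against 82.6% and 81.2%. In bins of 100 or more peaks, shallow peaks on the floor (6 to 10 fragments) were shared in 79.5% of cases for Spindlin1 (74.8 to 83.6), against 77.8% (71.2 to 83.5) on the rest of chromosome 2 and 76.8% (75.9 to 77.7) on the other chromosomes. For C11orf84 they were shared in 62.1% (55.6 to 68.2), against 61.4% (52.9 to 69.3) and 56.9% (55.7 to 58.0). In bins of fewer than 50 peaks the Spindlin1 share was 56.4% (46.6 to 65.8), against 36.8% in the short arm end (28.4 to 45.9), 42.0% on the rest of chromosome 2 (38.7 to 45.4) and 45.4% on the other chromosomes (44.6 to 46.1). For C11orf84 in those bins it was 40.4% (32.1 to 49.2), against 23.2% (17.2 to 30.1), 31.7% (28.5 to 34.97) and 30.9% (30.2 to 31.6). In the bins between these classes it was 70.4% for Spindlin1 (63.8 to 76.4), against 74.0% on the rest of chromosome 2 (68.99 to 78.6) and 65.2% on the other chromosomes, and 51.2% for C11orf84 (44.3 to 58.0), against 56.0% (50.1 to 61.7) and 44.8%. The intervals of the long arm end and of the rest of chromosome 2 were apart for Spindlin1 in the sparse bins. Sparse bins of the long arm end held more peaks each, so crowding was not level in that class. The intervals of these places met for Spindlin1 in the other classes and for C11orf84 in all 3.

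**Figure D4:**
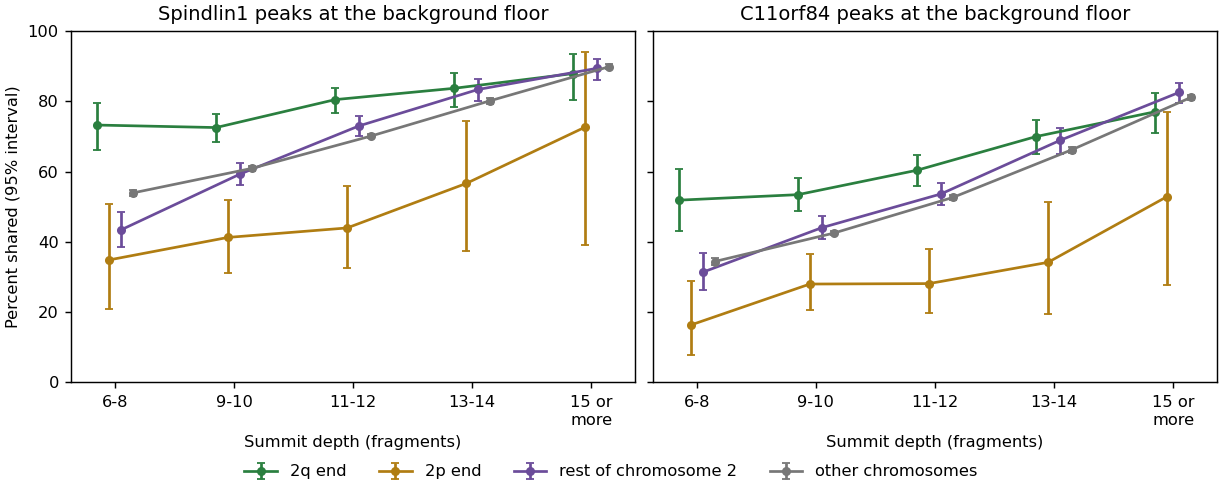
Percent of peaks shared with the other list by summit depth in fragments, for Spindlin1 (left) and C11orf84 (right) peaks at the background floor, in the long arm end (2q end), the short arm end (2p end), the rest of chromosome 2 and the other chromosomes, with exact 95% intervals. The long arm end lies highest at 6 to 8 fragments, 73.3% for Spindlin1 and 51.9% for C11orf84, and its intervals overlap those of the rest of chromosome 2 at 15 or more fragments.

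Inside the long arm end peaks of higher fold were shared more often in both lists. Among 4 groups of Spindlin1 peaks ordered by fold the shares were 72.7%, 73.0%, 78.7% and 83.9% from lowest to highest, and among 4 groups of C11orf84 peaks 53.9%, 55.4%, 64.0% and 73.4%. The upper intervals, 80.5 to 86.8 and 69.8 to 76.8, did not meet the lowest ones, 68.8 to 76.4 and 49.96 to 57.82.

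Where the proteins met, most meetings were of 1 peak with 1 peak. Overlapping intervals of both lists formed 1454 places in the long arm end, of which 1207 (83.0%) joined a single Spindlin1 peak and a single C11orf84 peak. A single C11orf84 interval spanned several Spindlin1 peaks at 133 places, a single Spindlin1 interval spanned several C11orf84 peaks at 68, and several of both were joined at 46. In the short arm end 134 of 136 places were single pairs. Summits of the single pairs lay a median of 50 bp apart in the long arm end (interquartile range 18 to 122 bp) and 42 bp apart in the short arm end. Spindlin1 had the deeper summit at 429 pairs of the long arm end and C11orf84 at 636, with 142 level, and the C11orf84 interval was the wider one at 65.3% of pairs. Depths of the members of a pair were only loosely related (Pearson coefficient 0.292, Spearman coefficient 0.257 over 1207 pairs), which in sparse counts is a description only.

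Many peaks called unshared still lay close to a peak of the other protein. In the long arm end 345 of 500 unshared Spindlin1 peaks (69.0%) and 589 of 980 unshared C11orf84 peaks (60.1%) lay less than 1 kb from one. In the short arm end 66 of 174 (37.9%) and 90 of 320 (28.1%) did. The share over all chromosomes was not counted. Peaks of the same list lay a median of 768 and 645 bp apart in the long arm end, and 6663 and 4660 bp in the short arm end. The part of this density in the nearness was not tested.

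The Spindlin1 peak of highest fold in the long arm end was an unshared one. It spanned 241141394 to 241141590, was enriched 11.9-fold with 23 fragments and ranked 276 in its list, and the nearest C11orf84 peak was 994 bp away. A further unshared peak, 241068684 to 241069056, enriched 10.3-fold with 19 fragments, lay 656 bp from a C11orf84 peak. The other 8 of the 10 Spindlin1 peaks of highest fold were shared. Near the tip, Spindlin1 reached 11.3-fold with 21 fragments at 242888544 to 242888765, where C11orf84 reached 7.36-fold. At 242843677 to 242844131 it reached 10.8-fold with 20 fragments, where C11orf84 reached 6.10-fold. Folds of different lists are each relative to their own list. Neighbouring peaks at 237016732 to 237017197 and 237017770 to 237017999, with folds of 10.3 and 9.75, both met a C11orf84 peak. The remaining 4, at 242762585, 239467834, 236662779 and 240265723, had folds between 9.75 and 10.3.

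All 10 C11orf84 peaks of highest fold were shared. This did not hold for larger groups, since 39 of the top 50 (78%) and 152 of the top 200 (76%) were shared. For Spindlin1 it was 40 of the top 50 (80%) and 173 of the top 200 (86.5%). The first of the 10 C11orf84 peaks, 241864527 to 241866048, was enriched 11.7-fold with 24 fragments, ranked 561 in its list and spanned 1522 bp. The Spindlin1 peak at the same place, 241864564 to 241866036, was enriched 8.03-fold with 16 fragments and was the widest Spindlin1 peak of the long arm end, at 1473 bp. At 237869262 to 237869494 Spindlin1 was enriched 9.24-fold with 17 fragments and C11orf84 10.8-fold with 21. The same fold of 10.8 was found at 236716134, 240051027, 241372778, 241835614, 242716685 and 239317638, where the Spindlin1 folds ranged from 5.64 at 241835744 to 8.72 at 239317945. The last 2 of the 10, at 238832138 and 240032415, had a fold of 10.3.

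The widest C11orf84 intervals lay side by side. The interval at 242141716 to 242144381 was 2666 bp long and that at 242138894 to 242141065 was 2172 bp long, and each overlapped 4 Spindlin1 peaks. Intervals of 1939, 1929 and 1896 bp followed at 239014195, 242844843 and 241660118, each over 3 Spindlin1 peaks. After the widest one, the Spindlin1 intervals of greatest width were at 241861489 (1294 bp), 241990692 (1287 bp), 239069996 and 241856797 (1271 bp both), so that 3 of the 5 lay between 241856797 and 241866036.

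Peaks far from the other protein lay mostly in the sparse inner part. Of the 31 Spindlin1 peaks without a C11orf84 peak within 5 kb, 20 lay below 239 Mb, as did 58 of the 75 C11orf84 peaks without a Spindlin1 peak. Of all peaks of the long arm end, the 1 Mb windows below 239 Mb held 124, 123 and 169 of 2181 for Spindlin1. For C11orf84 they held 171, 185 and 202 of 2557. Where peaks are sparse, fewer of the other list lie within 5 kb, and the part of this density was not tested. The highest Spindlin1 folds among the far peaks were 7.70 at 238838440 to 238838658, 7.15 at 236165595 and at 236173291, 6.72 at 236315129 and 6.67 at 238839346. For C11orf84 they were 8.92 at 240829231 to 240829482, 7.85 at 237499493, 7.51 at 237427723 and 7.36 at 236858322 and at 236978562. A place without a peak is a place without a call, which says nothing of whether the protein was there.

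Background under the peaks was low at both ends of chromosome 2. The background of 68.6% of Spindlin1 peaks (66.6 to 70.6) and 65.8% of C11orf84 peaks (63.9 to 67.7) of the long arm end stood at the floor, against 80.4% and 75.7% in the short arm end, 29.6% and 29.8% on the rest of chromosome 2 and 48.2% and 49.3% over all chromosomes. In windows of 5 Mb counted from the outermost long arm peak, the Spindlin1 share was 69.2% in the first, 65.2% in the second, 50.6% in the next and 43.5% in the one after. At 20 to 25 Mb from that peak it was 56.2%, so the fall was not steady. At the other end the outermost 2 windows had 84.6% and 73.5%, and the adjoining one 23.5%. Across all 49 windows of chromosome 2, the share was over 60% in 4 windows of each list, the outermost 2 at either end. The crowded long arm end and the sparse short arm end thus both had a larger share of peaks at the floor than any window between them. The library from which the background was taken is not given in the sources used here, and its part in the peak numbers was not tested.

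**Figure D5:**
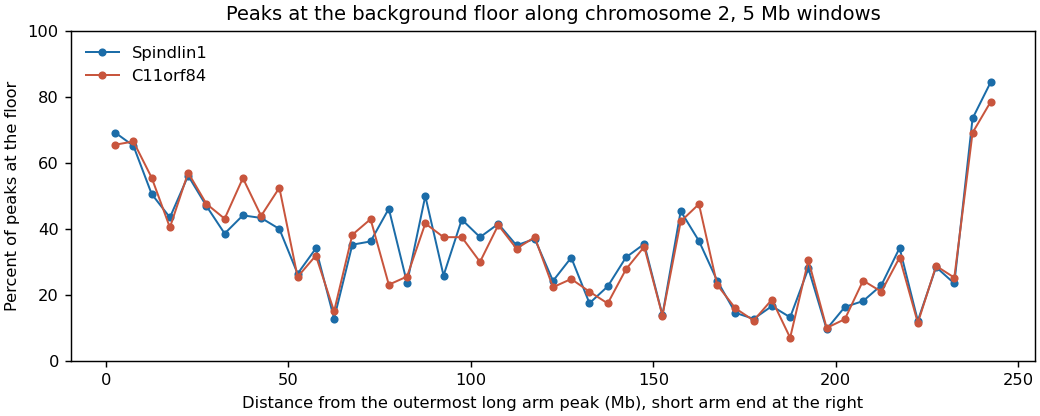
Percent of peaks whose background stands at the floor (vertical axis) in 5 Mb windows along chromosome 2, by distance in Mb from the outermost long arm peak, Spindlin1 in blue and C11orf84 in red. The share is above 60% in the outermost 2 windows at either end and lower in all windows between.

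A raised background, at least 2 times the floor, was found at 53 Spindlin1 peaks (2.43%, 1.83 to 3.17) and 69 C11orf84 peaks (2.70%, 2.11 to 3.40) of the long arm end, against 12.1% and 12.8% on the rest of chromosome 2 and 9.07% and 9.19% over all chromosomes. The highest of both lists, singled out after the values were seen, was at the same place, 239228998 to 239229345 for Spindlin1 (3.99 times the floor) and 239228868 to 239229568 for C11orf84 (3.82 times). Its folds were low, 3.34 and 3.23 at 15 fragments in both lists. Of the 53 raised Spindlin1 peaks 21 overlapped a raised C11orf84 peak, and 18 of the 69 raised C11orf84 peaks overlapped a raised Spindlin1 peak. How often raised peaks met over all chromosomes was not counted, so these counts are a description only. The Spindlin1 peak at 242254369 to 242254959, in the trough described above, had a background of 3.42 times the floor and a fold of 5.18 at 21 fragments.

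In the short arm end peaks were concentrated between 3 and 4 Mb, with 101 of 312 peaks of Spindlin1 and 155 of 456 of C11orf84. Its fullest bin, 3.6 to 3.7 Mb, had 25 and 32 peaks, and the bin at 3.4 to 3.5 Mb had 18 and 31. Between 3 and 4 Mb 60.4% of Spindlin1 peaks (50.2 to 70.0) were shared, against 30.6% at 0 to 1 Mb (16.3 to 48.1). The highest Spindlin1 folds of the short arm end were 9.75 at 3699643 to 3699903 and at 5666424 to 5666641, both shared, and the highest C11orf84 fold was 10.8 at 4114646 to 4114910, over a Spindlin1 peak of fold 5.64.

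At the inner limit the first Spindlin1 summit of the long arm end was at 236000905 with a fold of 9.60, which ranked 2987 in its list, and the last one before it was at 235996631 with 5.64. For C11orf84 these were 236011860 with 6.60 and 235997191 with 6.57. At 7 Mb the last Spindlin1 and C11orf84 summits of the short arm end were 6961647 and 6961246, and the next ones beyond were 7005554 and 7005958.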

How the data were processed

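ChIP-seq of U2OS cells gave 1 peak list for Spindlin1 and 1 for C11orf84. Per the labels' protocols, formaldehyde at 1% fixed the cells in 10 min, and 5 min in 0.125 M glycine ended the fixation. The submitters' processing notes name Bowtie 1.2.2 and the build hg19. Which program called the peaks, at what threshold and over which control was not found in those notes or the labels. The deposited lists give for each peak the authors' fold enrichment (a ratio), −log10 p-value and −log10 q-value of the summit. The deposited score, left unused, equals 10 times −log10 q with its decimals dropped (100% of peaks). No read totals were used, so depth per library is unknown.

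Positions are printed counting from 1. Summit depth k and background λ were recovered from fold = (k + 1)/(λ + 1) and the upper Poisson tail beyond k, which a whole k met for 100% of peaks within 0.000174 in −log10 p. Peaks within 0.1% of the lowest λ, the floor, count as at the floor (Spindlin1 0.949, C11orf84 1.04 fragments). On data simulated with this same formula 100% of 5000 depths were returned, which checks the computation and not whether the authors' program used the formula. Densities leave out peak-free stretches of 1 Mb or more, and chromosome Y enters only the list totals. Members, lists and limits were chosen with earlier results of these data known. Regions were named by rank: the 10 peaks of highest fold, the 5 widest, the 5 of highest fold more than 5 kb from the other protein, the 5 fullest bins and the 5 longest empty stretches of the long arm end, and the leading 3 of the short arm end. Genes were to be named only with an hg19 annotation, which was not used here, so gene names are background, and all 35 long arm and 16 short arm genes listed were found on chromosome 2 in RefSeq. Computation used SciPy 1.17.1 and NumPy 2.4.6 under Python 3.11.15, tables pandas 2.3.3, and plots matplotlib 3.10.9. No test was run, since each antibody has 1 library. The alternatives were a −log10 q of at least 10, 2 stricter rules of sharing, other limits of the stretches and other bin sizes.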

Additional observations from a re-analysis of the deposited data

How the results depend on the processing

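Of 39 alternative values, 17 stayed within 1.5 times the reported count or within the 95% interval of the reported value and 22 did not. Most that moved came from keeping only peaks with a −log10 q of at least 10. Peak numbers in the long arm end then fell to 148 for Spindlin1 and 319 for C11orf84, and their ratio to 0.464. The density ratio of long to short arm end became 10.4 and 14.999. Median fold was then 8.21 and 8.35, median summit depth 16 and 16 fragments, and median width 306.5 and 372 bp. With that threshold in both lists, 25% of Spindlin1 and 12.2% of C11orf84 peaks of the long arm end were shared, and 14.3% and 9.52% in the short arm end. Asking that an overlap take up 50% or more of each of the peaks gave 48.1% and 41.0% in the long arm end and 34.3% and 23.5% in the short arm end. Asking instead for summits within 200 bp gave 59.3% and 50.4% in the long arm end, against 41.0% and 28.1%. Without the innermost 2 Mb, the median C11orf84 width was 272 bp. The long arm end kept the higher density and the higher shared percent under every alternative run for them, although the stricter −log10 q leaves 14 Spindlin1 and 21 C11orf84 peaks in the short arm end. Since the stretches were chosen by their peak numbers, the kept density is a description and no support. Bins of 50 or 200 kb left the fullest bins below 1.5 times the reported number per 100 kb but moved their place. The cause was not tested. No paired analysis was possible because each antibody has 1 library. With a median of 11 or 12 fragments at a summit, an absent peak cannot be told apart from a missed call.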
